A study of Mus musculus with 48 samples.

Results

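Hepcidin is a peptide hormone that hepatocytes secrete to control how much iron enters the blood, and mice carry 2 hepcidin genes, Hamp and Hamp2. These genes and 8 others that sense, carry, store or export iron were followed through livers of FCG mice, the core genotype model that crosses gonad type with sex chromosomes: Bmp6, Hfe, Tfr2, Tfrc, Trf, Fth1, Ftl1 and Slc40a1. The 10 genes were chosen by symbol from the 55414 rows of the liver count table, and all 10 passed the filter on low counts that 15414 genes passed.

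Hepcidin binds ferroportin, the iron exporter encoded by Slc40a1, and causes its removal from the cell surface. Hepatocytes set hepcidin transcription by BMP6, a ligand made mainly by liver sinusoidal endothelial cells, which signals through BMP receptors, hemojuvelin and SMAD proteins. HFE and transferrin receptor 2 (Tfr2) relay the iron saturation of transferrin (Trf), transferrin receptor 1 (Tfrc) takes up iron-loaded transferrin, and ferritin, built of heavy (Fth1) and light (Ftl1) chains, stores iron. Inflammation adds a further input through IL-6 and STAT3. The role of Hamp2 in iron control is less clear than that of Hamp.

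The FCG model separates gonads from sex chromosomes: Sry is deleted from the Y chromosome and carried as an autosomal transgene, so that XX and XY mice of the C57BL/6 background can each have ovaries (Ov) or testes (Te). The genotypes were XX, XY-, XX;SryTg and XY-;SryTg, and each was studied with gonads in place (Intact) or after gonadectomy (GDX), giving 8 groups of 6 mice, 48 livers in all. Every mouse ate a high-fat diet (HFD) with 60% of calories from fat, begun at 15 to 17 weeks of age. By the sample labels, intact mice had 11 weeks of it and GDX mice, operated at 75 days, had 15. With the diet begun at the same ages, GDX mice were also older at its end. The authors' written methods give different HFD weeks for both cohorts. Effects of gonadectomy, of HFD weeks and of age therefore cannot be told apart in any GDX against Intact comparison, and no group was fed chow. Each replicate is a separate mouse.

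Libraries held 13071874 to 20045141 reads on genes, median 16577748, so that 3 reads correspond to 0.150 to 0.230 CPM, the counts scaled to library size in which levels are given here. Reads within the gene annotation also differed by cohort: 3.47% to 6.20% of reads in intact mice fell outside genes, against 8.52% to 11.3% in GDX mice. Reads that mapped to several places (multi-mapping), which are not counted on genes, differed too. They made up 10.7% to 18.9% of reads in intact and 8.59% to 10.8% in GDX mice, with a median of 16.4% in XY Te Intact mice. The 9 hepatocyte markers were tested and summed to between 67292 and 154941 CPM. Xist lay at 123 CPM or more in all 24 XX mice and at 8.36 or less in all 24 XY mice, while Ddx3y, from the Y chromosome, lay at 46.0 CPM or more in XY mice. In 2 XX mice, XX Te Intact replicate 4 and XX Te GDX replicate 4, Ddx3y passed 1 CPM, at most 3.82, and results that rest on them are given without them. XX Te GDX replicate 4 also had 72 reads of Scara5, a gene with 0 to 8 reads in the other 11 Te GDX mice and 19 to 257 in Te Intact mice.

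Hamp and Hamp2 are near copies of each other. They lie on chromosome 7, at 30942368-30944029 and 30922372-30924181 of GRCm38.p6, both on the minus strand.

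Hamp transcripts in Ov Intact livers ranged from 115 to 1312 CPM, median 490, and in Te Intact livers from 96.0 to 894, median 450. After gonadectomy the lowest, median and highest Hamp levels were 73.2, 235 and 642 CPM in Ov GDX mice and 49.8, 265 and 465 in Te GDX mice. Every pair of these arms overlapped, and mice of 1 group commonly differed several-fold. Hamp was well covered, with 953 to 21223 reads in a library.

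By group of 6 mice, median Hamp was 670 CPM in XX Ov Intact, 398 in XY Ov Intact, 281 in XX Te Intact and 640 in XY Te Intact livers. The 4 GDX groups had closer medians, 204 in XX Ov, 266 in XY Ov, 279 in XX Te and 265 in XY Te. Groups next to each other in this order overlapped.

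Hamp2 transcripts separated the intact mice by gonad. In XX Ov Intact livers Hamp2 ranged from 34.2 to 197 CPM, median 90.3, and in XY Ov Intact livers from 18.2 to 144, median 77.7. In XX Te Intact livers it ranged from 2.56 to 17.7 CPM, median 12.6, and in XY Te Intact livers from 1.56 to 8.27, median 4.55. All 12 Ov Intact mice lay above all 12 Te Intact mice, which 0.597% of tested genes did in either direction.

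After GDX the Hamp2 ranges met in between. XX Ov GDX livers had 6.29 to 47.4 CPM, median 24.1, and XY Ov GDX livers 12 to 44.3, median 24.8. XX Te GDX livers had 9.45 to 69.9 CPM, median 27.5, and XY Te GDX livers 12.2 to 47.2, median 29.4. Hamp2 was counted from 20 to 2889 reads per library, median 409.5.

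**Figure D1:**
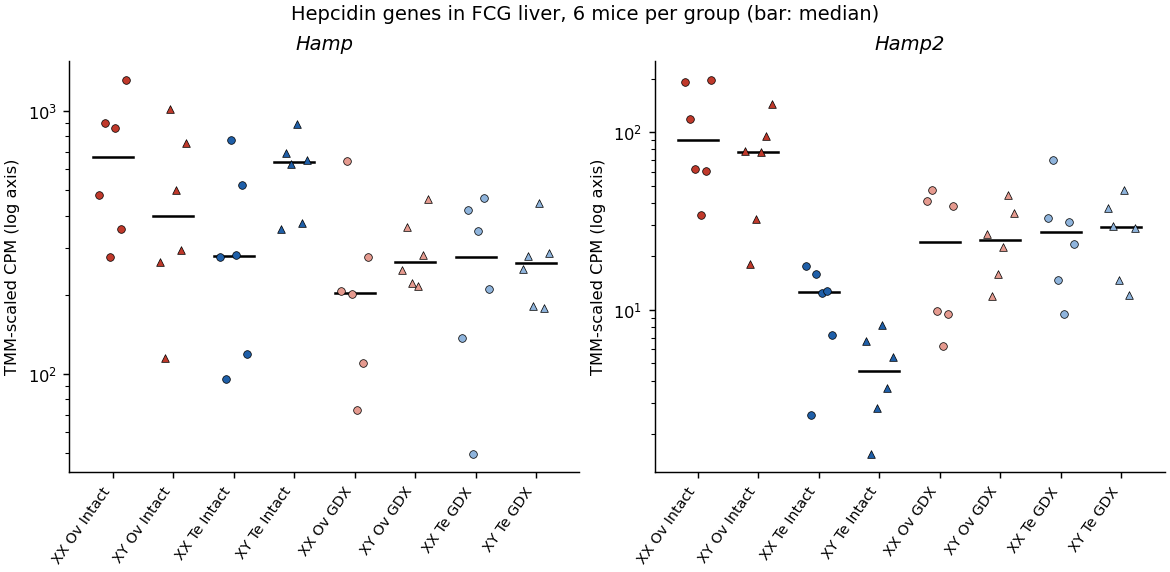
Hamp (left) and Hamp2 (right) in TMM-scaled CPM on log axes, with 1 point per mouse, 6 mice per group and a bar at each group's median. Hamp overlaps across all 8 groups, while Hamp2 in the 12 Ov Intact mice (18.2 to 197 CPM) lies above the 12 Te Intact mice (1.56 to 17.7) and takes middle values after GDX.

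The gonadal effect in intact mice compared ovaries with testes across both chromosome complements. Levels were fitted with edgeR's quasi-likelihood test, and adjusted p is Benjamini-Hochberg over all 15414 tested genes, called under 0.05. Where alternative settings other than leaving out 1 mouse ended a call of a named gene, the number of fits that made it, this one included, or the value under that setting is given. Of all tested genes 25.3% were called, 14.1% higher in Ov and 11.3% higher in Te. Of the 10 iron genes 3 were called, 2 higher in Ov and 1 in Te, a share near that background. Hamp2 was 12.3-fold higher in Ov mice, a log2 fold change of 3.62 (SE 0.40, adjusted p = 2.21e-09). Hamp differed by 0.36 on that scale (SE 0.35, adjusted p = 0.445), with a 95% interval from -0.34 to 1.06. The Hamp2 difference was 3.28 (SE 0.55) within XX and 3.96 (SE 0.58) within XY mice, and 3.63 without the 1 intact XX mouse with Y-linked reads. The Hamp difference was 1.01 (SE 0.49) within XX and -0.29 (SE 0.49) within XY mice, and whether these differ was not tested.

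Slc40a1, the ferroportin gene, was also higher with ovaries as averaged over XX and XY mice. It ranged from 223 to 426 CPM in Ov Intact livers, median 298, and from 194 to 402 in Te Intact livers, median 245. The log2 difference was 0.33 (SE 0.10, adjusted p = 0.0126), and the call was lost without XX Ov Intact replicate 6 (0.27, adjusted p = 0.0513) and with compared groups only (called in 9 of 10 fits, adjusted p up to 0.0787). Tfr2 was lower with ovaries, at 150 to 273 CPM, median 186, against 168 to 294, median 229. That difference of -0.23 (SE 0.08, adjusted p = 0.0377) lost its call without any 1 of 10 mice, with adjusted p up to 0.0954, and was called in 7 of 10 fits (adjusted p up to 0.144). The ranges of both genes overlapped between gonads. Slc40a1 differed by 0.47 (SE 0.14) within XX and by 0.19 (SE 0.14) within XY mice. Tfr2 differed by -0.14 (SE 0.12) and -0.32 (SE 0.12), and whether XX and XY mice differed was not tested. Hfe differed by 0.22 (SE 0.09, adjusted p = 0.0616), Trf by 0.23 (SE 0.10, adjusted p = 0.0824) and Fth1 by 0.25 (SE 0.13, adjusted p = 0.131). Without 4 XY Te Intact libraries in which over 18% of mapped reads mapped to several places, Fth1 was called (0.47, adjusted p = 0.0172). Some cell markers moved with gonads too: 4 of 8 Kupffer cell markers, 5 of 7 lymphocyte markers and 4 of 7 stellate cell markers were higher in Ov Intact livers. In contrast, 3 of 9 hepatocyte markers were lower there, with a list median of -0.23. Of 9 sinusoidal endothelial markers 1 was higher, of 6 erythroid markers 1 was higher and 1 lower, and no neutrophil marker was called. Of all tested genes 14.1% were higher in Ov and 11.3% in Te mice. The summed Kupffer markers ranged from 331 to 1120 CPM in Ov Intact and from 249 to 821 in Te Intact mice, and their part in the differences of Slc40a1 was not tested.

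Between former ovaries and former testes after GDX none of the 10 iron genes was called by edgeR, none had an unadjusted p under 0.05, and DESeq2 called none. Of all tested genes 0.0908% were called. The differences lay between -0.19, for Hamp2, and 0.12, for Tfrc. The 95% interval of the Hamp2 difference ran from -0.91 to 0.54.

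Gonadectomy was examined in each gonad type by comparing GDX with Intact mice. The ovariectomy effect called 69.4% of all tested genes, 36% higher in Ov GDX and 33.4% higher in Ov Intact mice, and 9 of the 10 iron genes, 2 higher and 7 lower after the operation. The castration effect called 63.3% of all genes, 33.4% higher in Te GDX and 29.9% higher in Te Intact mice, and 8 of the 10, 3 higher and 5 lower. The iron genes' median log2 fold change was -0.54 with ovariectomy and -0.33 with castration, against 0.06 and 0.07 over all tested genes. Both effects rest on the intact and GDX cohorts, which differed in HFD weeks and in the shares of reads outside genes and of multi-mapping reads. Beyond a fit without 4 XY Te Intact libraries high in multi-mapping reads, the part of such reads in these effects was not tested. The comparisons of ovaries with testes use the same intact mice. Scaled by library totals in place of trimmed mean of M values (TMM), the median of all genes was 0.27 in each effect, 0.21 and 0.20 above the values here.

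Hamp2 went in opposite directions. It fell by 1.81 on the log2 scale with ovariectomy (SE 0.36, adjusted p = 3.16e-05) and rose by 1.99 with castration (SE 0.38, adjusted p = 2.11e-05). The castration effect minus the ovariectomy effect was 3.80 (SE 0.53, adjusted p = 2.56e-06), in a contrast that called 5.6% of all genes, and Hamp2 was the 1 iron gene of 10 that passed. Within XX mice the ovariectomy effect was -2.13 (SE 0.52) and the castration effect 1.41 (SE 0.52), and within XY mice they were -1.5 (SE 0.51) and 2.58 (SE 0.56). Without XX Te GDX replicate 4, whose 9.45 CPM was the lowest Hamp2 level of the Te GDX mice, the castration effect was 2.08 (adjusted p = 1.12e-05).

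Hamp fell with ovariectomy, by 1.09 (SE 0.35, adjusted p = 0.00548), to 2.13-fold lower levels. With castration its change was -0.75 (SE 0.35, adjusted p = 0.0568), short of the threshold, and it passed with DESeq2's Wald test (adjusted p = 0.0414) and in 10 of 48 fits that left out 1 mouse. The effects on Hamp differed by 0.34 (SE 0.49, adjusted p = 0.682). Within XX mice Hamp changed by -1.47 with ovariectomy (SE 0.50) and by -0.35 with castration (SE 0.49). Within XY mice these changes were -0.72 (SE 0.49) and -1.15 (SE 0.49), and whether XX and XY mice differed was not tested. In XX Ov GDX mice 1 liver, replicate 2, held 642 CPM of Hamp against 73.2 to 278 in the other 5, and without it the ovariectomy effect was -1.36 (adjusted p = 0.000621) and the castration effect passed the threshold (adjusted p = 0.0445).

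The balance of the hepcidin genes was read within each liver as the Hamp2 share of hepcidin reads, each gene's reads divided by its transcript length, so that library size plays no part. Hamp2 made up 14.0% ± 7.01 (SD, n = 12 mice) of hepcidin reads per kilobase in Ov Intact livers, from 2.80% to 26.5%. In Te Intact livers the share was 2.11% ± 1.78 (n = 12), from 0.202% to 5.39%. In Ov GDX livers its lowest, median and highest values were 2.88%, 7.16% and 15.1%, and in Te GDX livers 2.38%, 8.67% and 20.9%.

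Hamp remained the major hepcidin transcript in every liver. A two-sided permutation test with 100000 resamples put the Ov Intact share 11.9 points above Te Intact (p = 4e-05, Benjamini-Hochberg over 4 comparisons 8e-05). Castration raised the share by 7.82 points (permutation p = 2e-05, the smallest these resamples can give, adjusted 8e-05). Ovariectomy lowered it by 5.97 points (permutation p = 0.0143, adjusted 0.0191). Ov GDX and Te GDX mice differed by -1.92 points (permutation p = 0.303). The transcripts are 84.7% identical and 17.5% of Hamp's 50-base windows occur in Hamp2, so reads wholly inside shared stretches map to both genes, and the deposited table holds multi-mapping reads apart from genes.

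**Figure D2:**
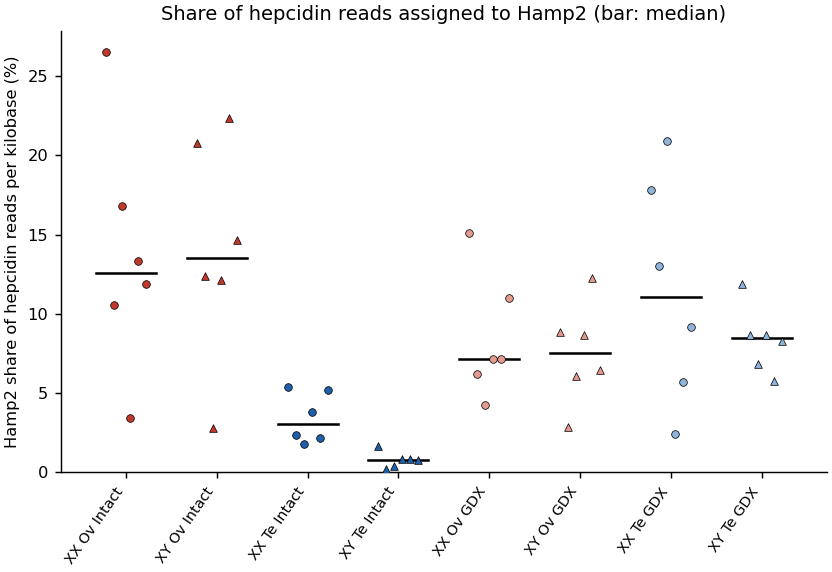
Share of hepcidin reads per kilobase assigned to Hamp2, in percent, with 1 point per mouse, 6 mice per group and a bar at each median. Intact mice with ovaries reach 26.5% and intact mice with testes stay at or under 5.39%, while both GDX arms lie between 2.38% and 20.9%.

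Ferritin transcripts fell together after gonadectomy. Fth1 ranged from 2112 to 4696 CPM in Ov Intact livers, median 3086, and from 1178 to 1907 in Ov GDX livers, median 1498. No Ov GDX mouse reached the lowest Ov Intact mouse, a separation that 10.8% of tested genes showed. In Te Intact livers Fth1 ran from 1499 to 3881 CPM, median 2498, and in Te GDX livers from 1209 to 1891, median 1492. Fth1 fell by 1.07 with ovariectomy (SE 0.13, adjusted p = 1.89e-09) and by 0.83 with castration (SE 0.13, adjusted p = 5.49e-07).

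The light chain changed less. Ftl1 medians were 395 CPM in Ov Intact and 278 in Ov GDX livers, and 369 in Te Intact and 289 in Te GDX livers. Ftl1 fell by 0.48 with ovariectomy (SE 0.07, adjusted p = 2.38e-07) and by 0.39 with castration (SE 0.07, adjusted p = 1.6e-05). The arms of each comparison overlapped at their edges.

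Transferrin, the plasma iron carrier, rose. Trf ranged from 7811 to 13106 CPM in Te Intact livers and from 13498 to 18344 in Te GDX livers, with no overlap, which 4.81% of tested genes showed. In ovarian mice the ranges were 9094 to 22170 CPM before and 14424 to 18411 after GDX, and 1 intact mouse lay above every GDX mouse. Trf rose by 0.41 with ovariectomy (SE 0.10, adjusted p = 0.000391) and by 0.64 with castration (SE 0.10, adjusted p = 7.81e-07).

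The transferrin receptors moved in opposite directions. Tfr2, the hepatocyte sensor, had medians of 186 CPM in Ov Intact, 284 in Ov GDX, 229 in Te Intact and 281 in Te GDX livers. It rose by 0.61 with ovariectomy (SE 0.08, adjusted p = 4.96e-08) and by 0.37 with castration (SE 0.08, adjusted p = 0.000219). Tfrc, which takes up transferrin-bound iron, had medians of 22.1, 19.0, 23.4 and 15.5 CPM in the same order. It fell by 0.34 with ovariectomy (SE 0.13, adjusted p = 0.0178) and by 0.52 with castration (SE 0.13, adjusted p = 0.000533). The ovariectomy call of Tfrc was lost without XY Ov Intact replicate 6 and was made in 8 of 10 fits. By library totals it was -0.10 (adjusted p = 0.477), where the median gene stood at 0.27.

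Hfe and Slc40a1 fell in both effects as averaged over XX and XY mice. Hfe ranged from 50.1 to 118 CPM in Ov Intact, 38.5 to 69.2 in Ov GDX, 57.5 to 83.4 in Te Intact and 39.0 to 83.3 in Te GDX livers. It fell by 0.59 with ovariectomy (SE 0.09, adjusted p = 3.07e-07) and by 0.41 with castration (SE 0.09, adjusted p = 0.00017). The castration effect on Hfe was -0.66 (SE 0.13) within XX but -0.15 (SE 0.13) within XY mice, and whether these differ was not tested. Slc40a1 had a range of 167 to 260 CPM in Ov GDX and 170 to 256 in Te GDX livers, which reached into both intact ranges. It fell by 0.67 with ovariectomy (SE 0.10, adjusted p = 1.75e-07) and by 0.27 with castration (SE 0.10, adjusted p = 0.0152). These falls differed by 0.39 (SE 0.14, adjusted p = 0.085). Of 8 Kupffer cell markers ovariectomy raised 1 and lowered 3, and castration raised 2 and lowered 1. Of 5 tested neutrophil markers ovariectomy raised 1 and lowered 3, and castration raised 1 and lowered 2, with median log2 fold changes of -1.79 and -1.43. Of 6 erythroid markers 3 fell with ovariectomy and 2 with castration, with medians of -0.69 and -0.48. For these marker counts the background over all tested genes was 36% higher and 33.4% lower with ovariectomy. With castration it was 33.4% higher and 29.9% lower. Kupffer markers summed to 241 to 1057 CPM in Ov GDX and 164 to 1370 in Te GDX livers, across the intact ranges given above. Neutrophil markers summed to 4.17 to 792 CPM in Ov Intact, 2.50 to 58.7 in Ov GDX, 2.54 to 123 in Te Intact and 2.66 to 114 in Te GDX livers. The part of these cells in the gonadectomy effects was not tested.

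The castration calls of Hfe and Slc40a1 depended on scaling. By library totals their changes were -0.20 (adjusted p = 0.0555) and -0.06 (adjusted p = 0.58), against a median gene at 0.27, so the castration count became 3 higher and 3 lower. The Slc40a1 castration call, made in 7 of 10 fits, was also lost without XY Te Intact replicate 3, with 1 surrogate variable and without the 4 XY Te Intact libraries high in multi-mapping reads (-0.11, adjusted p = 0.445), as was that of Tfrc (-0.35, adjusted p = 0.0653). Without those libraries the Slc40a1 effects differed by 0.56 (adjusted p = 0.0164). Bmp6, the ligand, was low and not called in either effect, at 0.18 (SE 0.19, adjusted p = 0.418) and 0.24 (SE 0.19, adjusted p = 0.28). It had 25 to 161 reads per library.

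**Figure D3:**
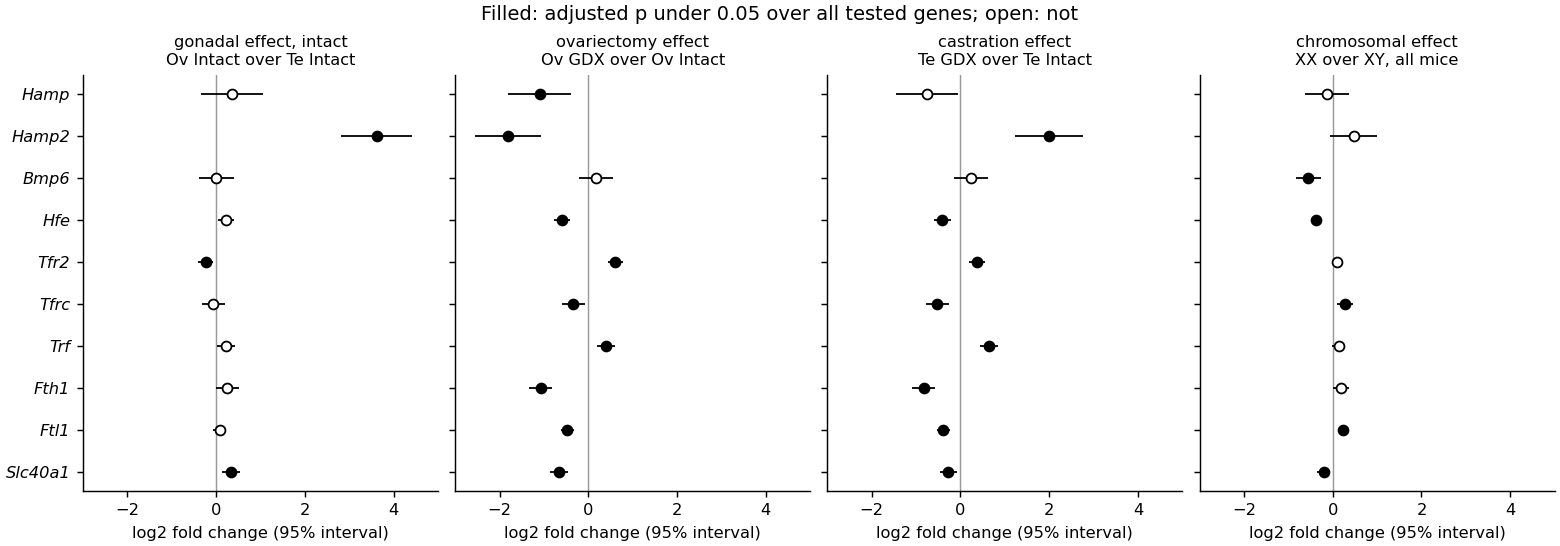
Log2 fold changes of the 10 iron genes with 95% intervals in the main comparisons. Filled points have an adjusted p under 0.05 over all tested genes. Hamp2 stands at 3.62 in the gonadal effect, at -1.81 with ovariectomy and at 1.99 with castration, while Fth1, at -1.07 and -0.83, falls in both gonadectomy effects.

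The chromosomal effect compared the 24 XX with the 24 XY mice across gonads and operations. It called 36.7% of all genes (XX above XY in 21.9%, below in 14.8%) and 5 of the 10 iron genes, of which 2 stood above and 3 below in XX mice. Within GDX mice it called 34.3% of all genes, 19.5% higher in XX and 14.8% in XY, and again 5 of the 10. Within intact mice it called 10.7% of all genes and none of the 10 by edgeR, where Hamp2, Hfe, Tfrc and Ftl1, 4 genes, had an unadjusted p under 0.05 and DESeq2 called none. Neither hepcidin gene was called: Hamp differed by -0.13 (SE 0.24, adjusted p = 0.716) and Hamp2 by 0.47 (SE 0.26, adjusted p = 0.153).

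Hfe and Bmp6 were higher in XY mice. Hfe ranged from 38.5 to 50.7 CPM in XX GDX and from 48.9 to 83.3 in XY GDX livers, where 10 of 12 XY mice lay above all XX mice. Its log2 difference, XX minus XY, was -0.51 (SE 0.09, adjusted p = 1.57e-05) in GDX mice and -0.37 (SE 0.06, adjusted p = 8.9e-06) over all 48. Bmp6 ranged from 1.96 to 5.32 CPM in XX GDX and from 3.05 to 9.43 in XY GDX livers, and differed by -0.72 (SE 0.19, adjusted p = 0.00278). Over all mice the Bmp6 difference was -0.55 (SE 0.14, adjusted p = 0.00124).

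Slc40a1 was higher in XY mice as well, at 188 to 260 CPM against 167 to 224 in XX GDX livers (-0.26, SE 0.10, adjusted p = 0.0356). Over all mice it differed by -0.20 (SE 0.07, adjusted p = 0.0178), called in 8 of 9 fits (adjusted p up to 0.0927). The call in GDX mice was lost without any 1 of 9 mice. None of the 10 genes separated XX GDX from XY GDX mice without overlap, which 8.06% of tested genes did.

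Ftl1 went the other way. It ranged from 260 to 365 CPM in XX GDX and from 228 to 294 in XY GDX livers, a difference of 0.29 (SE 0.07, adjusted p = 0.00158) called in 8 of 10 fits, and differed by 0.24 over all mice (SE 0.05, adjusted p = 0.000236). Fth1 ranged from 1437 to 1907 CPM in XX GDX and from 1178 to 1522 in XY GDX livers. The Fth1 difference of 0.32 (SE 0.13, adjusted p = 0.0483) lay at the threshold, lost its call in 26 of 48 fits that left out 1 mouse, and was called in 2 of 10 fits (adjusted p up to 0.373). Over all mice Fth1 differed by 0.18 (SE 0.09, adjusted p = 0.114). Tfrc was 0.28 higher in XX over all mice (SE 0.09, adjusted p = 0.0126), a call made in 7 of 9 fits (adjusted p up to 0.115) and lost without XX Ov Intact replicate 6. In GDX mice it differed by 0.30 (SE 0.13, adjusted p = 0.0691).

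By library totals the median gene stood 0.18 lower in GDX mice. Ftl1 and Fth1 were then not called there, nor Ftl1 and Tfrc over all mice, while Hfe, Bmp6 and Slc40a1 were called in both. The difference of the chromosomal effect between GDX and intact mice called 2.12% of all genes and none of the 10 by edgeR, with 1 gene, Hfe, at an unadjusted p under 0.05 (-0.28, SE 0.13, adjusted p = 0.297) and none called by DESeq2.

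Some cell markers moved with chromosome complement. Higher in XY mice were 7 of 8 Kupffer cell markers, all 5 tested neutrophil markers, 5 of 6 erythroid and 4 of 7 lymphocyte markers. Also higher there were 2 of 9 sinusoidal endothelial and 1 of 7 stellate cell markers, and 1 of 9 hepatocyte markers was higher in XX mice. Of all tested genes 14.8% were higher in XY and 21.9% in XX mice. The endothelial, stellate and hepatocyte counts thus lay near or below background. Kupffer markers summed to 164 to 438 CPM in XX GDX and 407 to 1370 in XY GDX livers. Neutrophil markers summed to 2.50 to 7.81 CPM and 15.2 to 114, and sinusoidal endothelial markers to 231 to 479 and 280 to 541. The erythroid markers other than Alas2 summed to 7.42 to 25.1 CPM in XX GDX and 12.8 to 41.2 in XY GDX livers. With Alas2 included the sums overlapped widely, at 30.9 to 90.6 and 26.4 to 70.7 CPM. Within GDX mice 5 of the 6 erythroid markers were called higher in XY and 1 in XX. Ly6g, a neutrophil marker, had no reads in all 12 XX GDX and 6 of the XY GDX livers. In bulk liver, fewer cells of a type and less RNA per cell cannot be told apart. The part of these cells in the differences of Bmp6, Hfe, Slc40a1, Ftl1 and Tfrc was not tested.

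**Figure D4:**
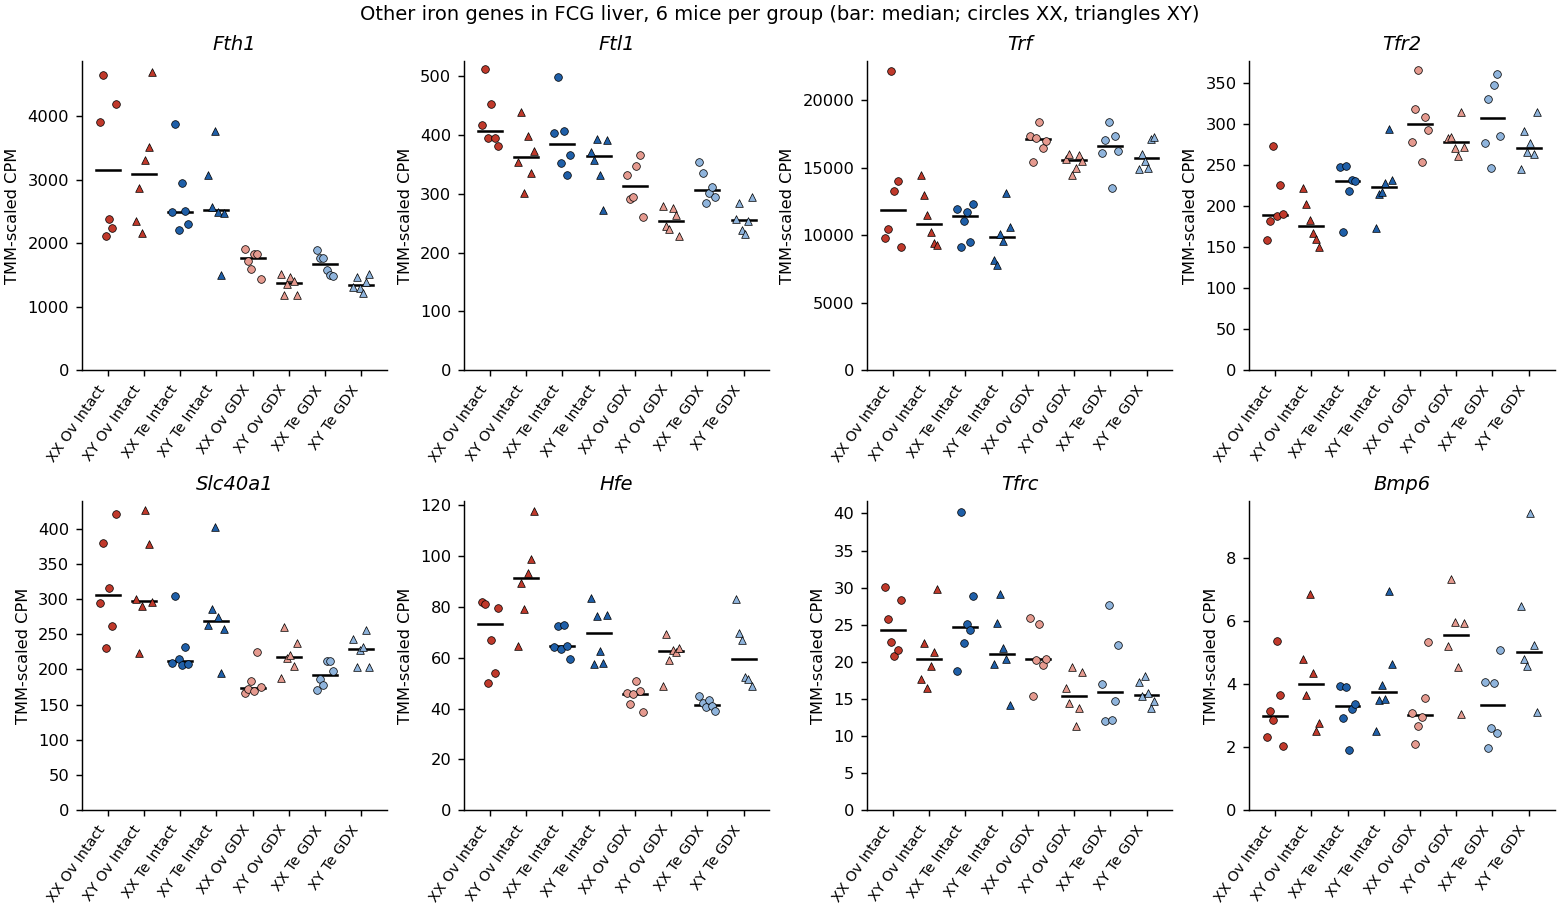
The 8 iron genes other than hepcidin in TMM-scaled CPM, 1 point per mouse (circles XX, triangles XY), 6 mice per group, bars at medians. Fth1 falls from 2112 to 4696 CPM in Ov Intact livers to 1178 to 1907 after ovariectomy, Trf in Te GDX livers (13498 to 18344) lies above Te Intact (7811 to 13106), and Hfe and Bmp6 are higher in XY than in XX GDX livers.

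Other genes of hepcidin control were read from lists of the BMP and SMAD pathway and of IL-6 and STAT3. In the gonadal effect 3 of 17 tested BMP and SMAD genes were called, 1 higher in Ov and 2 in Te mice, where 25.3% of all tested genes were called. Fgl1, a secreted hepatocyte protein that binds BMP ligands, ranged from 250 to 709 CPM in Ov Intact and from 139 to 314 in Te Intact livers and differed by 0.95 (SE 0.17, adjusted p = 3.94e-05). Hjv, the hemojuvelin co-receptor, was lower in Ov mice (-0.31, SE 0.09, adjusted p = 0.0129), called in 9 of 10 fits (adjusted p up to 0.062), as was Neo1, which binds hemojuvelin (-0.31, SE 0.11, adjusted p = 0.0362), a call lost without any 1 of 10 mice and made in 8 of 10 fits (adjusted p up to 0.179). The BMP targets Id1 at 0.37 (SE 0.21, adjusted p = 0.178) and Smad7 at 0.26 (SE 0.13, adjusted p = 0.123) were not called. Tmprss6, the protease that cleaves hemojuvelin, differed by -0.17 (SE 0.08, adjusted p = 0.0814).

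With ovariectomy 7 of the 17 BMP and SMAD genes were called higher and 4 lower, and with castration 4 higher and 6 lower. Over all tested genes ovariectomy called 36% higher and 33.4% lower, and castration 33.4% higher and 29.9% lower, which is the background of each list described here for these effects. Bmp2, a further BMP ligand, fell by 0.76 (SE 0.13, adjusted p = 2.7e-06) and by 0.42 (SE 0.13, adjusted p = 0.0046), the latter called in 9 of 10 fits (adjusted p up to 0.151). Fgl1 rose by 0.45 (SE 0.17, adjusted p = 0.0161) and by 1.47 (SE 0.17, adjusted p = 1.92e-09), and its effects differed by 1.02 (SE 0.23, adjusted p = 0.00484). Neo1 rose by 0.48 with ovariectomy (SE 0.11, adjusted p = 0.00027) and Smad6, an inhibitory SMAD, by 0.47 with castration (SE 0.14, adjusted p = 0.00316), a call made in 9 of 10 fits (adjusted p up to 0.162). Id1 was at -0.24 (SE 0.21, adjusted p = 0.3) and -0.18 (SE 0.21, adjusted p = 0.466), and Smad7 at -0.03 and 0.19, none of them called.

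Tmprss6 rose by 0.17 with ovariectomy (adjusted p = 0.0441), a call lost without any 1 of 17 mice and made in 6 of 10 fits (adjusted p up to 0.223), and stood at 0.00 with castration. Hjv stood at 0.00 with ovariectomy and fell by 0.23 with castration (SE 0.09, adjusted p = 0.0291), a call lost without any 1 of 4 mice and made in 4 of 10 fits (adjusted p up to 0.804). Erfe, the erythroid suppressor of hepcidin, had 0 to 4 reads in a library and was not tested. Of 7 IL-6 and STAT3 genes 5 were called higher and 1 lower in both effects. Il6ra, the receptor chain, rose by 0.77 (SE 0.13, adjusted p = 1.22e-06) and 0.76 (SE 0.13, adjusted p = 2.46e-06), and Stat3 by 0.68 with ovariectomy (SE 0.12, adjusted p = 3.26e-06). Socs3, a STAT3 target, rose by 0.59 with castration (SE 0.21, adjusted p = 0.0161), called in 8 of 10 fits (adjusted p up to 0.124) and lost without XY Te GDX replicate 1. Il6 itself was the 1 gene called lower in both effects. That call was made in 8 of 8 fits with ovariectomy but in 3 of 8 with castration (adjusted p up to 0.108). In the gonadal effect Il6 was higher in Ov mice, called in 9 of 9 fits. It had few reads, with medians of 8 in Ov Intact and 3 in Te Intact livers and 2.5 in each GDX arm.

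Over all mice the chromosomal effect called 6 of the 17 BMP and SMAD genes above, and 3 below, their XY level in XX mice, against 21.9% and 14.8% of all tested genes. Hjv was 0.34 higher in XX (SE 0.07, adjusted p = 3.52e-05), Tmprss6 0.28 higher (SE 0.05, adjusted p = 2.97e-05) and Neo1 0.35 higher (SE 0.08, adjusted p = 0.000483). By library totals Tmprss6 and Neo1 missed the threshold, at adjusted p of 0.0504 and 0.0555. Atoh8, a BMP-responsive transcription factor, was 0.36 higher (SE 0.14, adjusted p = 0.0341), a call made in 5 of 9 fits (adjusted p up to 0.184) and lost without any 1 of 8 mice. Socs3 was lower in XX by 1.34 (SE 0.15, adjusted p = 9.07e-10). Il6 had 0 to 8 reads in XX and 2 to 64 in XY livers. Id1 differed by -0.27 (SE 0.15, adjusted p = 0.157) and Smad7 by -0.20 (SE 0.09, adjusted p = 0.0802), while in GDX mice Smad7 was lower in XX by 0.43 (SE 0.13, adjusted p = 0.00658). The macrophage and neutrophil markers given above were mostly higher in XY mice, as were Socs3, Il6 and, after GDX, Smad7. Hjv, Tmprss6, Neo1 and Atoh8 went the other way. The part of these cells in any of these differences was not tested.

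Among 8 tested genes of iron uptake outside the transferrin cycle, 1 was higher in Ov and 2 in Te Intact livers, against 14.1% and 11.3% of all tested genes. Scara5, a ferritin receptor, had 0 to 5 reads in Ov Intact livers against 19 to 257 in Te Intact livers, and 0 to 8 in all Te GDX livers but XX Te GDX replicate 4. The metalloreductase Steap2 was higher in Ov mice (0.47, SE 0.12, adjusted p = 0.00309) and Steap3 lower (-0.40, SE 0.10, adjusted p = 0.00253). After ovariectomy 4 of the 8 were higher and 1 lower, and after castration 3 and 3. Lcn2, a siderophore-binding protein of inflammation, rose by 1.49 (SE 0.48, adjusted p = 0.0053) and by 2.49 (SE 0.50, adjusted p = 3.74e-05). Slc39a8, a metal importer, fell by 0.59 with ovariectomy (SE 0.08, adjusted p = 2.13e-08).

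Of 7 genes of iron sensing and chaperoning, 1 was higher and 4 lower with ovaries, against 14.1% and 11.3% of all tested genes. Ovariectomy raised 4 and lowered 3, and castration raised 1 and lowered 3. Fbxl5, whose product targets iron regulatory protein 2 for degradation, fell by 1.01 with ovariectomy (SE 0.10, adjusted p = 9.36e-11) and by 0.69 with castration (SE 0.10, adjusted p = 2.43e-07). Aco1, iron regulatory protein 1, rose by 0.85 (SE 0.12, adjusted p = 5.8e-08) and 0.50 (SE 0.12, adjusted p = 0.000396), the latter called in 9 of 10 fits (adjusted p up to 0.0523), and Ireb2, iron regulatory protein 2, fell by 0.51 with castration (SE 0.08, adjusted p = 1.69e-06). Cp, ceruloplasmin, which oxidises exported iron, rose by 0.63 (SE 0.10, adjusted p = 5.29e-07) and 0.45 (SE 0.10, adjusted p = 0.000163).

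Of 12 mitochondrial iron genes 7 fell and 5 rose with ovariectomy, where 33.4% of all tested genes fell and 36% rose, and 7 fell and 2 rose with castration, where 29.9% fell and 33.4% rose. Hscb, an iron-sulfur cluster co-chaperone, fell by 1.97 (SE 0.23, adjusted p = 8.07e-10) and 1.15 (SE 0.22, adjusted p = 2.82e-05), with ovariectomy and castration respectively. Of 8 heme synthesis genes 5 fell in each effect, and 1, Alas1, which encodes the first enzyme of the path, rose with castration (0.67, SE 0.17, adjusted p = 0.000956).

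Among 10 genes of heme salvage and breakdown, ovariectomy raised 2 and lowered 4, and castration raised 5 and lowered 4. Lrp1, the hemopexin receptor, rose by 1.54 (SE 0.17, adjusted p = 3.72e-10) and 1.02 (SE 0.17, adjusted p = 1.67e-06), and Blvrb, a biliverdin reductase, fell by 1.25 (SE 0.14, adjusted p = 1.02e-09) and 1.21 (SE 0.15, adjusted p = 4.8e-09). In the chromosomal effect 1 of these 10 was higher in XX and 3 in XY mice, against 21.9% and 14.8% of all tested genes. Hmox1, heme oxygenase 1, ranged from 10.8 to 32.0 CPM in XX GDX and from 39.8 to 171 in XY GDX livers, without overlap, a separation that 8.06% of all tested genes showed. The heme exporter Flvcr1 ranged from 3.26 to 6.28 CPM in XX GDX and from 7.29 to 16.8 in XY GDX livers. Hmox1 was lower in XX mice by 1.88 after GDX (SE 0.21, adjusted p = 1.04e-09) and by 0.71 in intact mice (SE 0.21, adjusted p = 0.0197), the latter called in 8 of 10 fits (adjusted p up to 0.0632). Those Hmox1 effects differed by -1.17 (SE 0.29, adjusted p = 0.0266), a call lost without any 1 of 3 mice and made in 7 of 9 fits (adjusted p up to 0.149). The Kupffer cell marker sums lay apart in XX and XY GDX livers except for their edges, and their part in the Hmox1 difference was not tested.

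Within groups, Hamp was compared across mice with 6 genes, as deviations of log2 CPM from each group's mean, separately in the 24 intact and the 24 GDX mice, 12 relations in all. Hamp varied with Id1. In intact mice Pearson's r was 0.66 (permutation p = 0.00058, adjusted 0.00378) and Spearman's rho 0.71 (permutation p = 0.00016, adjusted 0.00192), with r = 0.74 without the 2 mice farthest from the median of Id1. In GDX mice r was 0.65 (permutation p = 0.00063, adjusted 0.00378) and rho 0.69 (permutation p = 0.00038, adjusted 0.00228), with r = 0.55 without the 2 farthest.

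Hamp and Hamp2 varied together in GDX mice, with r = 0.59 (permutation p = 0.00225, adjusted 0.00675) and rho = 0.55 (permutation p = 0.00654, adjusted 0.0262), and r = 0.64 without the 2 farthest. In intact mice r was 0.46 (permutation p = 0.0242, adjusted 0.0581) and rho 0.43 (permutation p = 0.036, adjusted 0.072), and r fell to 0.19 without 2 mice, on which the relation rests. The stretches these genes share were not left out of the counts, and their part in the relation was not tested. Hamp and Tfrc had r = -0.60 in GDX mice (permutation p = 0.00177, adjusted 0.00675) and rho = -0.47 (permutation p = 0.0225, adjusted 0.0675), but r was -0.39 without the 2 farthest, so this relation rests on them. In intact mice Hamp and Tfrc had r = -0.19 (permutation p = 0.369, adjusted 0.554).

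Hamp and Bmp6 had r = 0.12 in intact and -0.02 in GDX mice, at adjusted permutation p of 0.616 and 0.91. Hamp and Slc40a1 had r = 0.33 and 0.14, and Hamp and Fth1 r = 0.12 and -0.43, at adjusted permutation p of 0.0667 or more. With CPM by library totals 2 further relations passed, Hamp with Fth1 in GDX mice (r = -0.68, adjusted permutation p = 0.00228) and Hamp with Tfrc in intact mice (r = -0.48, adjusted permutation p = 0.0324). The points of a cohort share its sequencing and scaling. No litter, cage or sequencing batch is given in the labels, so these relations could not be read within batches.

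**Figure D5:**
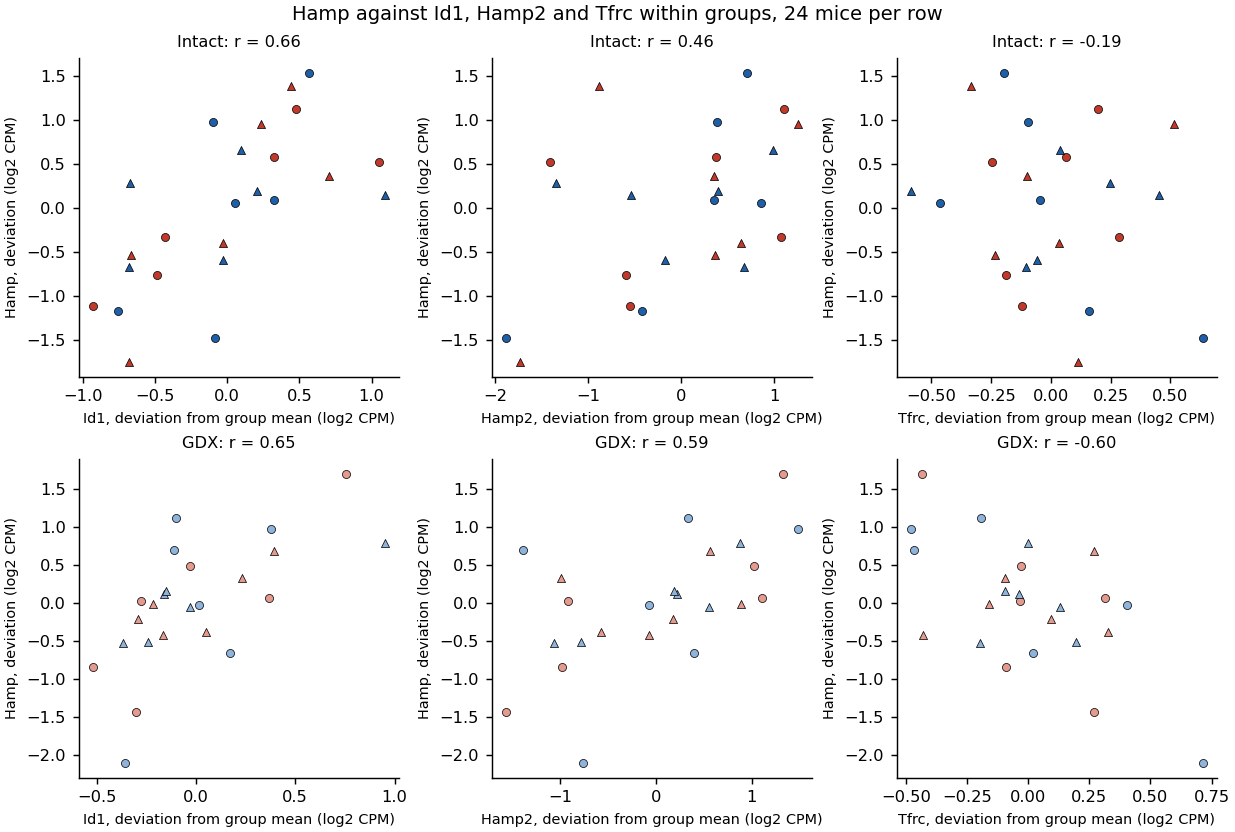
Deviation of Hamp from its group mean (log2 CPM, vertical) against that of Id1, Hamp2 and Tfrc (horizontal), with 24 intact mice in the upper row and 24 GDX mice in the lower. Hamp rises with Id1 in both rows (r = 0.66 and 0.65) and with Hamp2 in GDX mice (r = 0.59).

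Across all 48 mice the log2 CPM patterns most like each hepcidin gene were ranked by Pearson's r over 12865 genes, as a description with no test. For Hamp2 they were Hao2 (r = 0.91), Cyp2c68 (r = 0.89), Slc22a27 (r = 0.84), Sult2a2 (r = 0.83) and BC089597 (r = 0.83). Hao2, a peroxisomal hydroxyacid oxidase, had medians of 88.2 CPM in Ov Intact, 8.09 in Te Intact, 33.5 in Ov GDX and 33.4 in Te GDX livers, close in order to Hamp2's 77.7, 6.93, 24.8 and 29.4. Sult2a2, a sulfotransferase, had medians of 309, 0.858, 150 and 48.6 CPM, so the medians of its GDX arms lay farther apart than those of Hamp2. For Hamp they were Magix (r = 0.79), Paics (r = 0.78), Sdc2 (r = 0.75), Igfbp2 (r = 0.74) and Klf15 (r = 0.74). These lists of 5 shared no gene, which lists so short out of 12865 genes would seldom do by chance either.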

How the data were processed

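Livers of 48 FCG mice were snap-frozen after a 6 h fast and sequenced as poly(A) RNA. The authors aligned reads with STAR 2.7.10a to GRCm39 and deposited raw counts per Ensembl gene, not normalized. Their notes also name DESeq2 1.36.0. The strand setting of counting was not given in the sources used here. Here counts were analysed in R 4.3.3 with edgeR 4.0.16: filterByExpr, TMM scaling, robust quasi-likelihood fit of 8 group means over all 48 mice, contrasts of means, Benjamini-Hochberg adjustment over 15414 genes, and a threshold of 0.05. CPM are TMM-scaled, and a prior count of 2 was used for log2 CPM. Rows naming no gene stayed out of library sizes and tests: unmapped (6.99% to 16.5% of reads), multi-mapping (8.59% to 18.9%), outside genes (3.47% to 11.3%) and ambiguous reads (2.53% to 3.55%). Of 55414 IDs, 31020 (56.0%) had a symbol, as did 138 of 140 listed genes, and 0 columns belonged to no sample.

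The 10 genes, the pathway lists and the markers were chosen with earlier results of these data known. Text names all 10 genes, Id1, Smad7, Tmprss6 and Hjv, and from each pathway list up to 3 called genes with the greatest change per comparison, of which examples are given. Shares and correlations were tested with 100000 permutations (scipy 1.17.1). On simulated counts for the castration comparison, run on 14998 genes, 91 of 100 genes changed by a log2 of 1 and 100 of 100 changed by 2 were called, with 12 false calls. All other genes were simulated without change, whereas castration called 63.3% of tested genes, so this run cannot bear on the choice of scaling. Alternatives were other size factors, library totals, looser and stricter filters, DESeq2 1.42.0, compared groups only, 1 surrogate variable (sva 3.50.0) and leaving out each mouse. After seeing the data, fits without 4 libraries with over 18% multi-mapping reads and without 2 XX libraries with Ddx3y over 1 CPM were added. Gene locations are from RefSeq on GRCm38.p6, whose coordinates differ from the authors' build. Some genes of the pathway lists and the sequences upstream of the hepcidin genes are not reported here. Intervals of fold changes come from the fits and include the spread between mice.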

Additional observations from a re-analysis of the deposited data

Results flagged for a closer look

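Single mice stood far from the other 5 of their group in 4 of 80 sets of 1 gene and 1 group, and chance marks about 1 in 20, or 4 of 80. Hamp was 642 CPM in XX Ov GDX replicate 2 against 73.2 to 278 in the others. Slc40a1 was 224 CPM in XX Ov GDX replicate 5 against 167 to 183, and 304 in XX Te Intact replicate 2 against 207 to 232. Tfr2 was 168 CPM in that same XX Te Intact mouse against 219 to 249 in the others of its group.

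The response of Hamp2 to gonadectomy differed between gonad types, with a castration effect minus ovariectomy effect of 3.80 on the log2 scale (SE 0.53, adjusted p = 2.56e-06 by edgeR's quasi-likelihood test).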

How the results depend on the processing

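No paired analysis was possible because the labels give no replicate numbers that groups share. Hamp2 kept its direction and call in the gonadal, ovariectomy, castration and difference contrasts under every alternative run. Counts of iron genes called moved by over 1.5 times, or from or to 0, in these cases: gonadal effect 1 with compared groups only, chromosomal effect 3 by library totals, chromosomal effect in GDX mice 3 by library totals and 3 with no filter beyond 1 count, castration minus ovariectomy 2 with 1 surrogate variable and 3 without the 4 libraries high in multi-mapping reads, and chromosome by GDX 1 by library totals. Smaller moves included castration, 8 calls here, 6 by library totals and 6 without those 4 libraries and 9 with DESeq2, ovariectomy 8 by library totals, and the gonadal effect 2 by library totals. Leaving out 1 mouse gave 0 to 1, 3 to 5 and 1 to 2 calls for the chromosomal effect in intact mice, in GDX mice and the castration minus ovariectomy contrast. Library totals moved the share of calls that were higher from 55.6% to 68.1% (Ov Intact, gonadal), 59.8% to 28.1% (XX), 39.9% to 24.5% (XX Intact), 56.8% to 18.7% (XX GDX), 51.9% to 66.1% (Ov GDX), 52.7% to 69.5% (Te GDX) and 19.0% to 6.97% (chromosome by GDX, with 545 calls over all genes against 327). By library totals Hamp with Tfrc had r = -0.48 in intact mice, Hamp with Fth1 -0.093 in intact and -0.68 in GDX mice, and Hamp with Slc40a1 -0.030 in GDX mice. Without the 2 farthest mice Hamp with Fth1 had r = -0.0065 in intact mice and Hamp with Tfrc -0.39 in GDX mice.

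Values near 0 changed sign. Hamp2 in the chromosomal effect of GDX mice (0.02) became -0.015 with DESeq2 size factors, -0.18 by library totals, -0.058 without a filter, -0.025 with 10 counts in every mouse, -0.013 with DESeq2, -0.034 with compared groups only, -0.22 with a surrogate variable and -0.059 without libraries high in multi-mapping reads. Hamp in chromosome by GDX (0.02) became, under the first 5 of these in turn, -0.0060, -0.14, -0.055, -0.00025 and -0.0059, and then -0.18 (surrogate variable), -0.19 (multi-mapping) and -0.046 (without XX libraries with Ddx3y). Hjv with ovariectomy became -0.00051 (DESeq2 size factors), -0.0085 (no filter) and -0.00053 (DESeq2), Smad7 0.17 (library totals) and 0.00090 (10 counts), Id1 with castration 0.031 (library totals), and Tmprss6 with castration -0.022 (no filter), -0.072 (surrogate variable), -0.079 (multi-mapping) and -0.012 (Ddx3y). Leaving out 1 mouse, the ranges were -0.20 to 0.13 and -0.25 to 0.23 for the hepcidin values above, -0.25 to 0.13 (Hamp) and -0.32 to 0.032 (Hamp2) between GDX arms, and -0.35 to 0.031 for Hamp in intact XX against XY mice, -0.042 to 0.036 for Hjv and -0.097 to 0.064 for Smad7 with ovariectomy, and -0.023 to 0.024 for Tmprss6 with castration. The cause was not tested. Depth limits Bmp6, and more so Il6, Erfe and Scara5, which had libraries with 0 reads.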
